A study of Mus musculus with 14 samples.

Results

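The comparison set CD45+ Ter-119- cells from the spleen of tumour-bearing mice, named the control, against a bone marrow population labelled haematopoietic stem cells (HSC) and sorted as c-Kit+ Sca-1+ Lin-. Each group had 2 samples, and every mouse was wild type for genotype and of the strain C57BL/6. Both gates gave a stated purity above 98%, and no age, sex or tumour line was given for either group. The deposited table, which covers 14 samples in 7 groups, gives 1 column per group, the authors' mean over its 2 samples in FPKM (fragments scaled by transcript length and by the library's total), so no value below has a replicate error and no difference could be tested. Genes with at least 1 FPKM in either column were compared, which kept 14054 of 49583 genes. The largest value just below that limit was 0.999623 FPKM and the smallest just inside it was 1.00054 FPKM. A difference is log2(control + 1) minus log2(HSC + 1), and a gene is called higher or lower in the control when this is at least 1 or at most -1, that is, at least 2-fold on this scale. Adding 1 FPKM understates the difference of genes with low values. Organ, gate and tumour differ together between the groups, and their parts in any difference cannot be told apart.

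Blood stem cells in the marrow carry the receptor tyrosine kinase c-Kit and the surface antigen Sca-1, renew themselves and give rise to lymphoid, myeloid, erythroid and megakaryocytic progenitors. The spleen is a secondary lymphoid organ in which mature B and T lymphocytes are the commonest leukocytes, beside natural killer cells, dendritic cells and red pulp macrophages. CD45 is on nearly all leukocytes, whereas Ter-119 marks late erythroid cells, so a CD45+ Ter-119- gate takes spleen leukocytes as a mixture.

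The control column held the genes of mature spleen lymphocytes. The gene of CD45 itself was not analysed here. In the HSC column the data went against the label in part. Kit was at 22.3 FPKM against 0.795 in the control, which is the direction of the gate. Ly6a, which encodes Sca-1, was at 32.5 FPKM against 104 in the control, so the gate's other positive antigen was higher in the spleen cells, which were not sorted for it.

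Antigens that lineage cocktails usually contain were present in the HSC column, though the labels do not name the cocktail used. Itgam, the integrin chain CD11b of myeloid cells, was at 23.9 FPKM against 4.24 in the control. Ly6g, a neutrophil antigen, was at 17.8 FPKM against 0.922. T cell antigens were low, with Cd3e at 0.138, Cd8a at 0.479 and Cd4 at 4.58 FPKM. Several genes used to mark long-term stem cells were under 1 FPKM in both columns and were not compared, among them Mecom at 0.973, Prdm16 at 0.966, Ndn at 0.562, Vwf at 0.397 and Hoxb5 at 0.0194 FPKM in the HSC column. Slamf1, which encodes the stem cell antigen CD150, was at 0.331 FPKM there and at 3.42 in the control. The values below are therefore those of the column labelled HSC, a marrow population with stem and progenitor, precursor B, granulocytic and macrophage transcripts together. Their shares of cells were not measured, and in such bulk samples fewer cells of a type and less RNA per cell cannot be told apart.

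**Figure D1:**
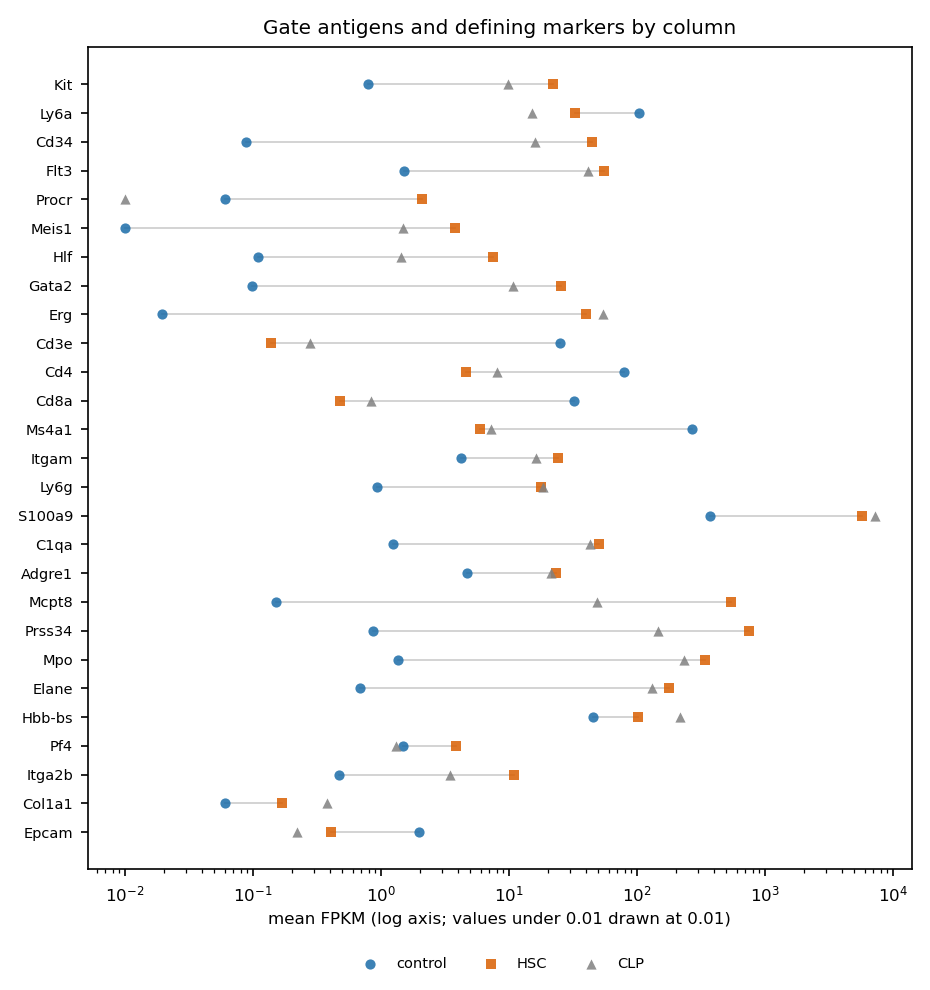
Mean FPKM of 27 gate antigens and defining markers on a log axis, with circles for the control, squares for the HSC column and triangles for the marrow column labelled common lymphoid progenitors (CLP); values under 0.01 are drawn at 0.01. Kit is to the right in the HSC column, Ly6a is to the right in the control, and S100a9, Mcpt8 and Prss34 are far to the right in both marrow columns.

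Of the 14054 genes, 1469 were higher in the control (10.5%), 2278 were lower (16.2%) and 10307 were neither. The median difference was -0.12, which moved to 0.0199 under quantile normalization. At least 8-fold differences were found for 205 genes in the control's direction and for 177 in that of the HSC column. Among the 10939 protein-coding genes 776 were higher in the control (7.09%) and 1967 were lower (18.0%), with a median of -0.20. The balance between the directions thus depended on gene type: 39.2% of all genes past 2-fold were higher in the control, and 28.3% of the protein-coding ones. Antigen receptor variable segments were part of that gap: 185 of 202 immunoglobulin segments and 107 of 114 T cell receptor segments of these annotated gene types were higher in the control. A gene at 0 in one column entered only through the other, so the counts of members below are descriptions to be read beside these percentages.

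Some features of the whole columns also differed. Genes of mitochondrial proteins encoded by mitochondrial DNA held 5.23% of all FPKM in the control and 11.03% in the HSC column, and cytosolic ribosomal protein genes 19.5% and 15.1%. Total FPKM was 390033 and 404031, and none of 22 broadly used genes was at 0 in either. Xist, the RNA of the inactive X chromosome, was at 19.8 and 54.3 FPKM, and the Y-linked genes Ddx3y and Eif2s3y were listed at 0 in both. The part of this makeup in the differences was not tested.

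The CLP column, sorted as c-Kit+ Sca-1+ IL-7R+ Lin- from the same organ, lay near the HSC column. Of 13692 genes with at least 1 FPKM in either, 759 were at least 2-fold apart (5.54%), against 26.7% between the control and HSC. Against CLP, 1566 of 14063 genes were higher in the control (11.1%) and 2395 were lower (17.0%). Both comparisons share the control column, so the second is no independent repeat of the first.

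**Figure D2:**
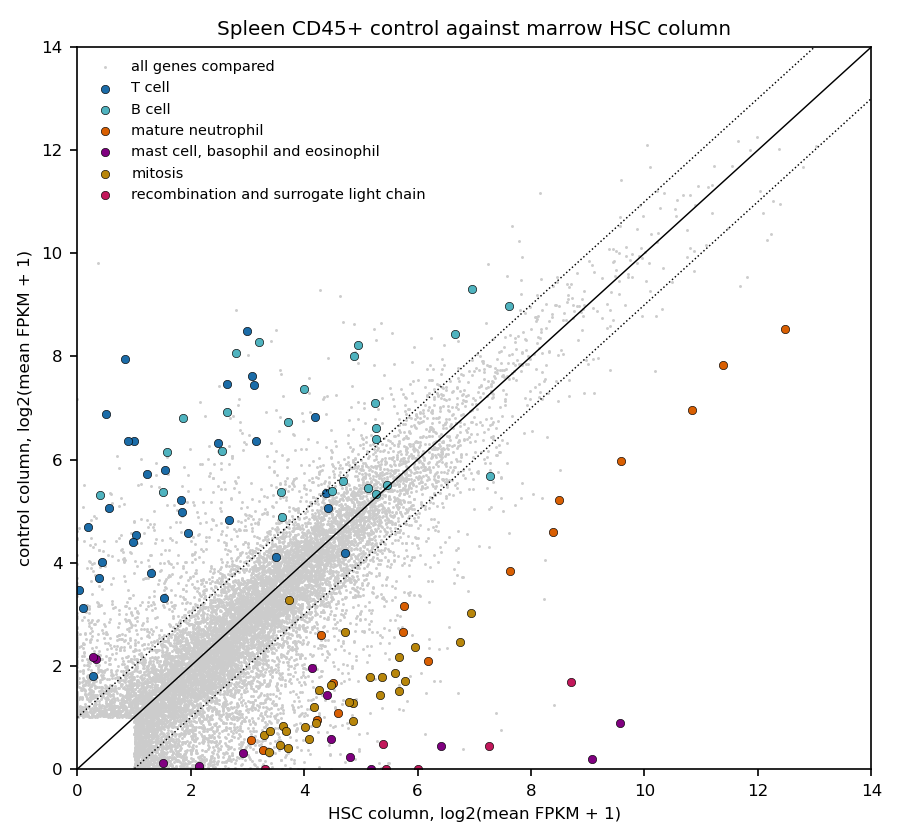
Each grey point is 1 of the 14054 genes, with log2(mean FPKM + 1) of the HSC column on the horizontal and of the control on the vertical axis; the solid line is equality, the dotted lines are 2-fold, and 6 gene lists are coloured. Most T cell and B cell genes lie above the upper dotted line, and neutrophil, basophil, mitosis and recombination genes lie below the lower one with a few exceptions near the lines and 2 genes of the mast cell list just above the upper dotted line at the lower left.

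Of the lymphoid lists, the T cell list stood farthest to the control's side. Of 32 T cell genes compared, 28 were higher in the control and none was lower, with a median of 3.42 beside -0.12 for all genes. Trac, the constant region of the T cell receptor alpha chain, was at 248 FPKM in the control and 0.797 in the HSC column, a difference of 7.11. Cd8b1, a chain of the co-receptor of cytotoxic T cells, was at 117 and 0.427 FPKM. Cd4, the co-receptor of helper T cells, was at 78.6 and 4.58 FPKM. The signalling chains of the receptor complex showed the same order. Cd3d was at 81.0 and 0.991 FPKM, and Cd3g was at 81.6 and 0.860 FPKM. Foxp3, the transcription factor of regulatory T cells, was at 10.1 FPKM in the control and 0.0261 in the HSC column, so transcripts of helper, cytotoxic and regulatory subsets were all in the spleen mixture. Cd27 (17.2 and 25.4 FPKM), Lef1 (16.2 and 10.3), Lcp2 (32.6 and 20.5) and Fyn (40.0 and 19.9), which are also used outside mature T cells, were the 4 members less than 2-fold apart. T cell receptor segments counted by symbol, annotated pseudogenes left out, gave 146 of 153 higher in the control and none lower. That list is wider than the 114 compared segments annotated as variable. It held 210 segments before the filter, of which 146 were at 0 in the HSC column, where the highest was at 3.85 FPKM. Segments at 0 there could be compared only through the control, so the lack of lower ones adds no separate support. Such segments are short and alike, and the counting may have split their reads.

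Natural killer and cytotoxic genes were higher in the control for 12 of 18, and lower for none, with a median of 1.60 that was 0.86 with a pseudocount of 5. Gzma, a protease of cytotoxic granules, was at 147 FPKM in the control and 19.4 in the HSC column. Prf1, which encodes the pore-forming perforin, was at 24.9 and 2.10 FPKM. The receptors that define natural killer cells were less far apart: Ncr1 was at 10.3 and 6.07 FPKM and Klrb1c at 11.6 and 6.10, both under 2-fold.

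Genes of lymphocyte homing and quiescence were higher in the control for 12 of 19 and lower for none, with a median of 1.14. Ccr7, the chemokine receptor that brings lymphocytes and dendritic cells into T cell zones, was at 476 FPKM in the control and 5.92 in the HSC column, a difference of 6.11. S1pr1, the receptor by which lymphocytes leave lymphoid tissue, was at 120 and 9.02 FPKM. Klf2, a transcription factor of resting lymphocytes, was at 970 and 229 FPKM. Btg1, an antiproliferative gene, was at 325 and 74.0 FPKM. Cxcr4, the receptor that retains cells in the marrow, had the other order at 96.2 and 165 FPKM, a difference of -0.77 that did not reach 2-fold.

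B lineage genes divided by stage. Of 26 B cell genes, 20 were higher in the control and 1 was lower, with a median of 2.10. Ms4a1, which encodes the mature B cell antigen CD20, was at 267 FPKM in the control and 5.97 in the HSC column, a difference of 5.27. Fcer2a, which encodes CD23 of follicular B cells, was at 111 and 2.64 FPKM. Cr2, the complement receptor CD21, was at 38.8 and 0.318 FPKM. Genes used from the precursor stage onward were well detected in the HSC column too. Pax5, the factor that commits cells to the B lineage, was at 299 and 29.9 FPKM, and Cd79a, a signalling chain of the B cell receptor, was at 502 and 194 FPKM. Ebf1, an early B lineage factor, was at 47.2 and 24.6 FPKM, and Blnk, an adaptor of precursor and B cell receptors, was at 39.3 and 37.4 FPKM. The lower member was Vpreb3, a gene of precursor B cells, at 50.6 FPKM in the control and 154 in the HSC column.

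The 6 genes of V(D)J recombination and of the surrogate light chain were all lower in the control, with a median of -5.72, the lowest of the lists. Dntt, which adds bases at receptor junctions, was at 2.21 FPKM in the control, 416 in the HSC column and 773 in CLP. Vpreb1, part of the surrogate light chain of precursor B cells, was at 0.364, 152 and 278 FPKM in that order. Rag1, part of the recombinase, was at 0.405, 40.8 and 91.4 FPKM. Igll1, Vpreb2 and Rag2 were listed at 0 in the control and at 63.1, 42.4 and 8.93 FPKM in the HSC column. Vpreb1 and Vpreb2 are close copies whose reads may have been divided between them. With these genes the 2 marrow columns were both high and the spleen column low, the reverse of the mature B cell genes.

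**Figure D3:**
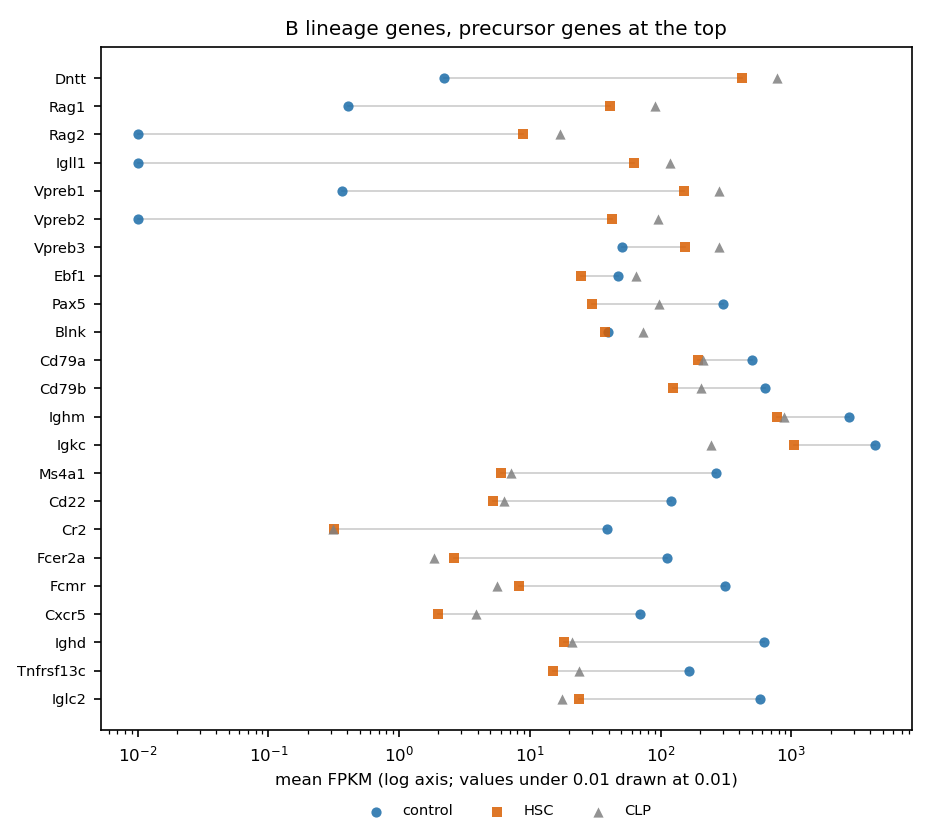
Mean FPKM of 23 B lineage genes on a log axis, genes of precursor cells at the top, with circles for the control, squares for the HSC column and triangles for CLP; values under 0.01 are drawn at 0.01. The order of control and HSC turns over down the list, from Dntt at 2.21 against 416 FPKM to Ms4a1 at 267 against 5.97 FPKM.

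Antibody constant regions and plasma cell genes were higher in the control for 13 of 18 and lower for 1. Ighd, the constant region of IgD on naive mature B cells, was at 622 FPKM in the control and 18.3 in the HSC column. Ighm, that of IgM, was at 2754 and 772 FPKM, and Igkc, that of kappa light chains, at 4381 and 1058 FPKM. Transcripts of Ighm were thus abundant in both columns, whereas those of Ighd were 5.01 log2 units apart. Jchain, which joins secreted IgM and IgA, was at 118 and 54.9 FPKM. Sdc1, the plasma cell antigen CD138, was the lower member at 4.18 and 11.2 FPKM. Of 224 immunoglobulin segments counted by symbol, annotated pseudogenes left out, 194 were higher in the control and 9 were lower. This list is wider than the 202 compared segments annotated as variable. Immunoglobulin genes held 4.79% of all FPKM in the control and 0.923% in the HSC column.

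Genes of MHC class II presentation, which display peptides to CD4+ T cells, were higher in the control for 11 of 16 and lower for none, with a median of 2.21. Cd74, the invariant chain, was at 2295 FPKM in the control and 285 in the HSC column. H2-Eb1, a class II beta chain, was at 1481 and 201 FPKM, and H2-Aa, an alpha chain, at 891 and 151 FPKM. Ciita, the coactivator that sets class II transcription, was at 35.0 and 2.82 FPKM. The factors that sit on class II promoters were less than 2-fold apart: Rfx5 was at 8.16 and 6.48 FPKM, Rfxap at 6.81 and 5.54, and Rfxank at 5.24 and 3.66. H2-Oa, a chain of the H2-O modulator of peptide loading used by B cells, was at 107 and 14.8 FPKM. H2-DMb2 had the largest difference at 363 and 10.3 FPKM, and its close copy H2-DMb1, at 62.8 and 31.0 FPKM, may share reads with it.

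The promoters of H2-Aa, H2-Eb1 and H2-Oa are shown because these genes were all higher in the control, as Ciita was, and carry the CCAAT box, the site of NF-Y, which is part of the class II promoter module. Each run is the 250 bases before the RefSeq start in GRCm38.p6, 5′ to 3′ on the gene's strand, and capitals mark CCAAT or its reverse complement ATTGG. The windows are chr17:34287824-34288073 on the minus strand for H2-Aa, chr17:34305617-34305866 on the plus strand for H2-Eb1 and chr17:34092129-34092378 on the plus strand for H2-Oa.
H2-Aa: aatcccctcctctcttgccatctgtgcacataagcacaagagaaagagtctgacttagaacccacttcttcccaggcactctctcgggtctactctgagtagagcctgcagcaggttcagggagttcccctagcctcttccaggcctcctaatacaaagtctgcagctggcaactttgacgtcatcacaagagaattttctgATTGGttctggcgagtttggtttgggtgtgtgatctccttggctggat
H2-Eb1: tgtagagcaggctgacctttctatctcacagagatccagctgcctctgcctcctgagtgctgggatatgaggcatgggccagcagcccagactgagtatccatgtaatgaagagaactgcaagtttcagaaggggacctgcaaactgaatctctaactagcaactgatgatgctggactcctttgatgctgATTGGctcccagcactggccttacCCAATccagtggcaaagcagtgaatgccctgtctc
H2-Oa: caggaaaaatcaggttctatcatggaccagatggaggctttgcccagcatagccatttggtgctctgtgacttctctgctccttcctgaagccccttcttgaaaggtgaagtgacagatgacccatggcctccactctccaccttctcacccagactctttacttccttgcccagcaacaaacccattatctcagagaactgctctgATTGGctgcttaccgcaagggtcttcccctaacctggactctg
Searched on both strands, CCAAT was in 9 of the 11 class II list promoters with a RefSeq entry (81.8%), in 4 of 21 T cell promoters (19.05%), in 7 of 15 mature neutrophil promoters (46.7%), in 15 of 23 DNA replication promoters (65.2%) and in 5929 of all 16453 protein-coding promoters (36.0%). The share was thus also above that of all promoters in lists that were lower in the control. The RefSeq start used lay 3291 bases from the annotated gene start for H2-DMa and 1942 bases for H2-DMb2. Their windows may therefore not be the promoters of the gene models compared. A match describes the letters of the window and is not evidence of binding in these cells.

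MHC class I presentation, which nearly all nucleated cells use, was nearer to equal: 4 of 21 genes were higher in the control and 1 was lower. B2m, the shared light chain, was at 3288 and 2999.7 FPKM, and H2-K1, a classical heavy chain, at 695 and 352 FPKM. H2-Q6 and H2-Q7, close copies that may share reads, were at 312 and 103 FPKM and at 154 and 52.5 FPKM. The lower member was Canx, the chaperone calnexin, at 39.2 and 93.5 FPKM.

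Stem cell genes had the reverse order. Of 32 in the list 27 were compared, and 22 of these were lower in the control and 1 was higher, with a median of -1.96. That median depended on the setting: it was -3.91 with a pseudocount of 0.1, -0.81 with one of 5, and -3.17 among genes with at least 5 FPKM. Cd34, a progenitor antigen, was at 0.0887 FPKM in the control and 44.4 in the HSC column, a difference of -5.38. Erg, a transcription factor of blood stem cells and endothelium, was at 0.0196 and 39.8 FPKM, and Gata2, another, at 0.0984 and 25.4 FPKM. Which cells of this mixed column held Cd34, Erg and Gata2 was not measured, and Mecom, Prdm16 and Vwf were under 1 FPKM there. Hlf and Meis1, which are high in stem and early progenitor cells, were at 7.45 and 3.79 FPKM in the HSC column, and at 0.109 and 0.00323 in the control. Procr, which encodes the stem cell antigen EPCR, was at 2.09 FPKM in the HSC column and 0.0602 in the control. Procr and Esam were listed at 0 in CLP, where Erg was at 54.2 and Cd34 at 15.9 FPKM, so the 2 marrow columns were not alike across this list.

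Among growth factor receptors 10 of 19 were lower in the control and 1 was higher. Flt3, the receptor of early lymphoid and dendritic progenitors, was at 1.51 FPKM in the control and 55.0 in the HSC column. Csf3r, the receptor of G-CSF, was at 1.56 and 29.2 FPKM. The higher member was Tgfbr2, a chain of the TGF-beta receptor, at 45.7 and 10.9 FPKM. Il7r, whose product is part of the CLP gate, was at 42.3 FPKM in the control, 30.4 in the HSC column and 55.0 in CLP.

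Granulocyte genes were lower in the control from the progenitor to the mature stage. Of 18 primary granule and myeloid progenitor genes 13 were lower and 1 was higher, with a median of -2.94. Mpo, the myeloperoxidase of primary granules, was at 1.36 FPKM in the control and 340 in the HSC column, a difference of -7.17. Elane, neutrophil elastase, was at 0.681 and 177 FPKM. The 17 mature neutrophil genes were all lower in the control, with a median of -3.29. S100a9, a calcium-binding protein of neutrophils and monocytes, was at 369 FPKM in the control and 5728 in the HSC column. Ngp and Camp, secondary granule genes, were at 1829 and 767 FPKM in the HSC column, and at 123 and 62.0 in the control. Retnlg, of mature neutrophils, was at 3.27 and 72.0 FPKM. Summed over the list, the level was 883 FPKM in the control and 12152 in the HSC column. Mature neutrophil transcripts were thus high in a column whose gate removes lineage-positive cells, and their part in the other differences was not tested.

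Macrophage and monocyte genes were lower in the control for 22 of 23, with a median of -2.30. C1qa, a subunit of complement C1q made by tissue macrophages, was at 1.23 FPKM in the control and 50.3 in the HSC column. Vcam1, an adhesion molecule of marrow and spleen macrophages and stroma, was at 0.643 and 20.2 FPKM. Spic, the transcription factor of iron-recycling macrophages, was at 0.556 and 2.99 FPKM. Adgre1, which encodes F4/80, was at 4.69 and 23.2 FPKM. Summed levels were 294 FPKM in the control and 1689.5 in the HSC column. The highest member alone was at 211 FPKM in the control and 1159 in the HSC column, most of each sum. Cd14, at 2.16 and 4.59 FPKM, was the member under 2-fold.

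The list of mast cell, basophil and eosinophil genes held the widest differences of listed genes toward the HSC column, those of Mcpt8 and Prss34. Mcpt8, a basophil protease, was at 0.150 FPKM in the control, 539 in the HSC column and 49.0 in CLP, a difference of -8.88 between control and HSC. Prss34, another basophil protease, was at 0.863, 756 and 145 FPKM. Cpa3, a carboxypeptidase of mast cells and basophils, was at 0.361, 84.5 and 21.9 FPKM. These genes also separated the 2 marrow columns from each other. Of 13 genes in the list 11 were lower in the control and 2 were higher, Cma1 at 3.40 and 0.253 FPKM and Il5ra, an interleukin receptor chain that some B cells also carry, at 3.49 and 0.208 FPKM.

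Dendritic cell genes went both ways, with 3 of 12 higher in the control, 4 lower and a median of -0.20. The higher ones, Ccr7, Irf4 (89.6 and 13.0 FPKM) and Cd83 (189 and 15.9 FPKM), are also used by lymphocytes. Itgax, which encodes CD11c, was at 11.1 and 12.7 FPKM, and Siglech, of plasmacytoid dendritic cells, at 6.57 and 7.18 FPKM, both under 2-fold. The 4 lower ones were Flt3 (1.51 and 55.0 FPKM), Sirpa (5.43 and 24.2), a receptor of conventional dendritic cells and other myeloid cells, and the lectins Cd209a (2.21 and 6.24) and Clec10a (0.706 and 2.79).

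Erythroid genes were lower in the control for 9 of 14 and higher for 1. Tal1, a factor of stem and erythroid cells, was at 0.264 FPKM in the control and 9.92 in the HSC column. Globin transcripts were present in both: Hbb-bs was at 45.7 and 103 FPKM, and Hba-a1, a near-identical copy of Hba-a2, at 75.0 and 166 FPKM. Slc4a1, the band 3 anion exchanger of red cells, was the higher member at 2.56 and 0.329 FPKM. Of the megakaryocyte list 3 of 11 were lower in the control, and Itga2b, the platelet integrin CD41 that early progenitors also carry, was at 0.469 and 10.9 FPKM. Platelet Pf4 was at 1.49 and 3.84 FPKM. Genes of stroma, endothelium and epithelium were low in both columns. Of 17 listed 6 were compared, the list summed to 4.19 FPKM in the control and 20.6 in the HSC column, and Dcn and Alb were listed at 0 in both.

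Cell division genes were lower in the control almost throughout. Of 28 mitosis genes 27 were lower and none was higher, with a median of -3.34. Mki67, the proliferation antigen Ki-67, was at 7.10 FPKM in the control, 122 in the HSC column and 203 in CLP. Top2a, the topoisomerase that untangles chromosomes, was at 4.53, 106 and 143 FPKM. Cdk1, the kinase that drives entry into mitosis, was at 0.912, 28.2 and 35.7 FPKM. Cenpa, the histone variant of centromeres, was the member under 2-fold at 8.68 and 12.3 FPKM. Of 30 DNA replication genes 26 were lower in the control, with a median of -2.12. Rrm2, a ribonucleotide reductase subunit, was at 4.09 and 90.9 FPKM, and Pcna, the polymerase clamp, at 70.3 and 174 FPKM. Core histone genes, which are made in S phase and many of which are near copies, were lower for 32 of 48 and higher for none. CLP was above the HSC column for Mki67, Top2a and Cdk1, and no test of that order was possible.

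The promoters of Cdk1, Ccnb2 and Cdc20 are shown because these mitosis genes hold both the CCAAT box and TTTGAA, the core of the cell cycle homology region that the MuvB complexes bind. Capitals mark CCAAT or ATTGG, and TTTGAA or its reverse complement TTCAAA, in the same 250-base windows of GRCm38.p6. All 3 genes are on the minus strand, with windows at chr10:69352913-69353162 for Cdk1, chr9:70421555-70421804 for Ccnb2 and chr4:118437344-118437593 for Cdc20.
Cdk1: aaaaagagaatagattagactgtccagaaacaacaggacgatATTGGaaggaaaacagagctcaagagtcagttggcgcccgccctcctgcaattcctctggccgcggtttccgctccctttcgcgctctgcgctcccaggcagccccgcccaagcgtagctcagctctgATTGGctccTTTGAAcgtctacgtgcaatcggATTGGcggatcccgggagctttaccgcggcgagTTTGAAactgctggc
Ccnb2: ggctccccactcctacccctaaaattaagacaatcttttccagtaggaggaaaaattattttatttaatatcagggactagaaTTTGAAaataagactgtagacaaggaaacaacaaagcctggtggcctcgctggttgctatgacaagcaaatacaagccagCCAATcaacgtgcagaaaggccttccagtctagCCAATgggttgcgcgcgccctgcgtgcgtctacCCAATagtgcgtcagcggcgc
Cdc20: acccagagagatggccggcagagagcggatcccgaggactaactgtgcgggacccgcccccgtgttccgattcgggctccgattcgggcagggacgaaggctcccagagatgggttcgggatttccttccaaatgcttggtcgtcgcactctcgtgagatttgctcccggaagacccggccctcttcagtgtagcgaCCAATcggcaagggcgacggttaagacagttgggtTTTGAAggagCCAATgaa
CCAAT was in 19 of 24 mitosis promoters with a RefSeq entry (79.2%), beside 36.0% of all protein-coding promoters. Both motifs stood together in 8 of the 24 (33.3%) and in 861 of 16453 overall (5.23%). TTCCCGC, an E2F site sequence, was in 7 of 23 DNA replication promoters (30.4%), in none of the mitosis promoters and in 853 of all (5.18%). CCAAT and TTTGAA matches can share an edge base, each was counted on its own, and these shares are descriptions with no test.

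Cell cycle regulators leaned toward the HSC column, with 10 of 21 lower in the control and 1 higher, and a median of -0.96. Cdk6, a G1 kinase used by progenitors, was at 2.98 FPKM in the control and 27.6 in the HSC column. Cdkn1a, the inhibitor p21, was at 6.40 and 44.5 FPKM, so an arrest gene had the same order as the division genes. Cdkn1b, the inhibitor p27, was at 30.7 and 28.7 FPKM. Myc, a growth regulator, had the other order at 58.0 and 31.3 FPKM, short of 2-fold. Mxd4, a Myc antagonist, was the higher member at 23.1 and 10.8 FPKM.

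Growth and energy genes differed less. Of 24 ribosome biogenesis genes 1 was lower in the control and none was higher, with a median of -0.42. The lower one, Srm, the spermidine synthase counted with this list, was at 17.6 and 37.2 FPKM. Cytosolic ribosomal protein genes had a median of 0.32, with 1 of 80 higher and 2 lower. Nuclear subunits of oxidative phosphorylation had a median of -0.43, with 5 of 79 lower. The 13 subunits encoded by mitochondrial DNA had a median of -0.98, with 6 lower and none higher. mt-Co3, a cytochrome oxidase subunit, was at 662 FPKM in the control and 3294 in the HSC column. Glycolysis genes were lower in the control for 9 of 21. Hk3, the hexokinase of myeloid cells, was at 1.26 and 22.3 FPKM, whereas Aldoa and Eno1 were near equal at 54.6 and 57.3 FPKM and at 46.3 and 43.0 FPKM.

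Chromatin modifiers leaned toward the HSC column. Of 19 DNA methylation, polycomb and fetal-type genes 8 were lower in the control and 2 were higher, with a median of -0.50. Dnmt1, the methyltransferase that copies methylation after replication, was at 11.5 FPKM in the control and 75.6 in the HSC column. Ezh2, the methyltransferase of polycomb complex PRC2, was at 5.41 and 26.0 FPKM, whereas its relative Ezh1 was at 12.6 and 5.43 FPKM. Cbx2 and Cbx7, alternative chromodomain subunits of polycomb complex PRC1, had opposite orders: Cbx2 was at 0.990 and 8.08 FPKM, and Cbx7 at 15.9 and 3.23 FPKM. Ezh1 and Cbx7 were the 2 higher members, so these pairs do not describe the list as a whole.

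Blood fate transcription factors split, with 7 of 28 higher in the control and 8 lower, and a median of -0.12 that turned positive, to 0.0252 at its highest, over the alternative settings. Cebpa, of granulocyte and monocyte fate, was at 2.27 FPKM in the control and 25.0 in the HSC column, and Myb, of progenitors, at 4.46 and 44.3 FPKM. Ikzf3, the lymphocyte factor Aiolos, was at 55.5 and 4.78 FPKM, and Ets1, of lymphocytes, at 109 and 30.0 FPKM. Ikzf1, the related factor Ikaros that acts from progenitors onward, was at 40.3 and 28.0 FPKM.

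Chemokine ligands leaned toward the HSC column, with a median of -1.41, and cytokine and receptor genes went both ways. Of 12 chemokine ligands compared 7 were lower in the control and 1 was higher. Ccl6 and Ccl9, made by myeloid cells, were at 12.3 and 4.09 FPKM in the control, and at 111 and 72.2 in the HSC column. Ccl5, made by T and natural killer cells, was the higher one at 170 and 27.8 FPKM. Of 15 cytokines 7 were lower and 3 were higher. Osm, oncostatin M, was at 1.22 FPKM in the control and 52.8 in the HSC column, and Il6 at 0.0570 and 11.7 FPKM. The 3 higher ones were Ltb (250 and 20.3 FPKM), Ifng (13.5 and 1.77) and Lta (7.69 and 0.872), which lymphocytes make. Of 15 lymphocyte cytokine receptors 6 were higher in the control and 3 were lower, and Il2rg, the common gamma chain, was at 348 and 45.6 FPKM. Among Toll-like receptor genes 4 of 16 were higher and 3 lower. Tlr1, one of the receptors of bacterial lipopeptides, was at 26.8 and 2.53 FPKM, and Tlr13, of bacterial RNA, at 1.42 and 9.76 FPKM.

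Interferon-stimulated genes were not higher as a group in the control than in the HSC column, with summed levels of 727 and 737 FPKM. With a marrow population as the only comparator, this says nothing about an effect of the tumour. Of 30 genes 1 was higher in the control and 7 were lower, with a median of -0.51. Bst2, the virus-tethering protein tetherin, was at 42.6 FPKM in the control and 103 in the HSC column, and Isg15, a ubiquitin-like modifier, at 22.6 and 29.6 FPKM. Genes of checkpoints and suppression were higher in the control for 6 of 14 and lower for 1. Cd274, the ligand PD-L1, was at 51.1 and 10.5 FPKM, and Ctla4, an inhibitory receptor of T cells, at 20.1 and 0.980 FPKM. Lgals9, galectin-9, was the lower member at 53.5 and 170 FPKM. Arg1, Nos2 and Ido1, enzymes of suppressive myeloid cells, were at 0.360, 0.0371 and 0 FPKM in the control and were not compared.

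Immediate early genes, rapidly induced by many stimuli, were mixed: 3 of 19 were higher in the control and 5 were lower. Ier3 was at 2.27 FPKM in the control and 83.3 in the HSC column, and Fos at 212 and 668 FPKM. Junb had the other order at 711 and 226 FPKM, as did Egr3 at 26.4 and 3.51 FPKM. In the BCL2 family, the regulators of cell death, 1 of 15 was higher in the control and 2 were lower, and its median of -0.07 turned positive, to 0.16 at most, over the alternative settings. Bcl2 was at 18.3 and 11.2 FPKM and Bcl2l1, which encodes BCL-XL, at 2.51 and 7.29 FPKM. Of 13 imprinted growth genes 4 were compared and none reached 2-fold.

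**Figure D4:**
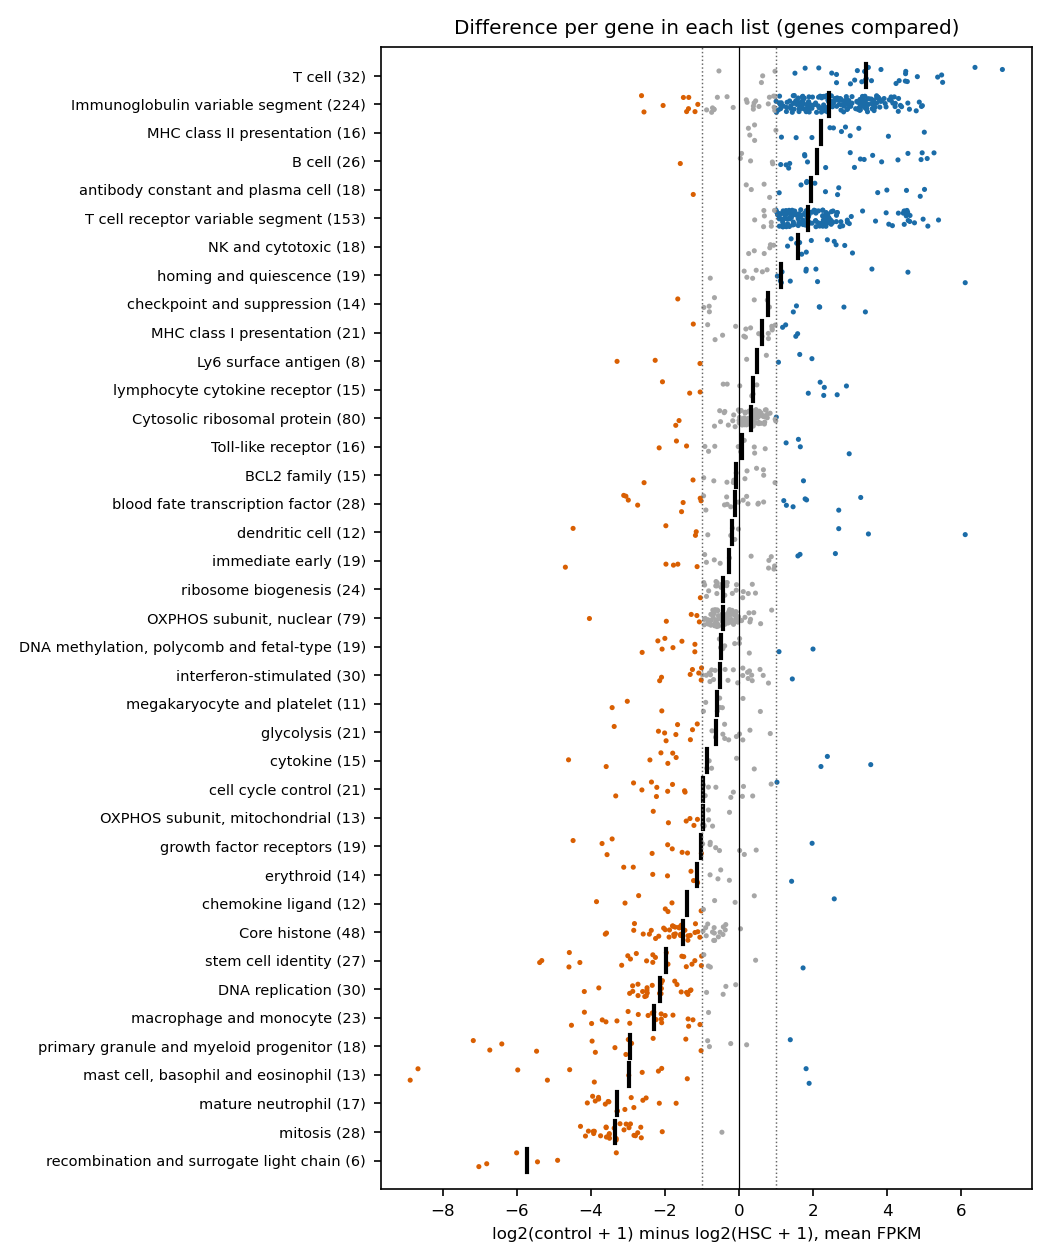
Each point is 1 gene compared, placed by its difference, log2(control + 1) minus log2(HSC + 1) of mean FPKM, with lists ordered by their median (black bar) and the number of genes in brackets; blue points are higher and orange points lower by at least 2-fold, and grey points neither. Medians run from 3.42 for T cell genes to -5.72 for recombination and surrogate light chain genes.

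Outside the lists, the 10 protein-coding genes with the largest difference in each direction and at least 5 FPKM in the higher column were taken, leaving out unnamed gene models and antigen receptor genes. The largest toward the control was Dapl1 (chr2:59484653-59505020, GRCm38), at 143 FPKM there and listed at 0 in the HSC column. Dtx1, an E3 ligase of the Notch pathway, was at 65.8 and 0.624 FPKM, a difference of 5.36. Scd1, the stearoyl-CoA desaturase that makes monounsaturated fatty acids, was at 260 and 7.03 FPKM. Next came Dusp10 (65.7 and 2.001 FPKM), a MAP kinase phosphatase, and Gimap3 (143 and 6.24), a lymphocyte GTPase with close relatives. Fcrl1, a B cell surface receptor, was at 51.5 and 2.03 FPKM. The remaining 4, Ffar1, P2ry10, Myo1e and Gramd3, had differences of 3.94, 3.87, 3.79 and 3.77.

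Toward the HSC column the largest was Adgrg1, an adhesion receptor also called GPR56 (chr8:94974751-95014217), at 1.12 FPKM in the control, 167 in the HSC column and 152 in CLP. Myl10, a myosin light chain, was at 0.0905, 43.4 and 41.5 FPKM. Ifitm1, an interferon-inducible membrane protein, was at 1.78, 104 and 23.04 FPKM, so it was higher in the HSC column than in CLP. Adgrl4, an adhesion receptor known from endothelium, was at 0.0894, 39.0 and 12.4 FPKM. Stmn1, which destabilises microtubules and is high in dividing cells, was at 8.78, 300 and 102 FPKM. Pbk, a mitotic kinase, was at 0.449, 37.9 and 58.7 FPKM. Gfra2, Cd63, Nt5dc2 and Muc13 completed the 10, with differences of -4.70, -4.69, -4.62 and -4.58. All 10 were also higher in CLP than in the control.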

How the data were processed

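RNA sequencing libraries were made from total RNA of sorted cells with a TruSeq kit, per the labels' protocols. The deposited table holds FPKM values that the authors averaged over the 2 samples of each group, read as FPKM from the values. The build was mm10 per the submitters' processing notes. The sources used here give no aligner, counter or annotation. Depth is unknown and no error could be computed. A test per gene was planned for values per sample, and with means none was run.

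Of 49588 lines, 2 without a gene name and 3 repeats were dropped. IDs of 49324 genes matched GENCODE M21 (GRCm38), which gave symbols and types, and 259 did not. Log2 values were computed from the deposited FPKM with a pseudocount of 1 in Python 3.11.15, numpy 2.4.6 and pandas 2.3.3, with figures in matplotlib 3.10.9. The script was tested on simulated data. Genes were grouped in 43 lists. Named genes are list members that define a list or differ most, and the 10 largest other differences per direction. The genes, lists and rules were chosen with earlier results of these data known. Some listed genes have results that are not reported here. Alternatives changed the pseudocount, filter, scaling, fold and gene types. Of the listed genes, 4 are not analysed here. FPKM is relative, so abundant transcripts of 1 kind lower the values of others. They give no strand setting either, so overlapping antisense genes cannot be told apart.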

Additional observations from a re-analysis of the deposited data

How the results depend on the processing

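The columns are means without error or depth, so no direction is backed by replicates. No paired analysis was possible because the columns carry no replicate numbers, and leaving out each replicate was not run for the same reason. A pseudocount of 5 left 698 genes higher in the control and 867 higher in the HSC column, and a 4-fold limit left 494 and 641. Keeping genes with 5 FPKM left 1460 higher in the HSC column, out of fewer genes compared. Quantile normalization moved the median over all genes from -0.12 to 0.0199, a shift above 0.1, and the share of 2-fold genes higher in the control to 47.2%. Protein-coding genes alone, an alternative chosen after seeing the data, gave 776 higher in the control, a share of 28.3%. The same genes without the mitosis, replication and histone lists, also chosen after seeing the data, gave 776 and a share of 29.2%. Of 504 alternative values of list medians and named genes, 446 moved by less than 1.5 times on the fold scale, 58 moved by more and 0 called values changed sign. With a pseudocount of 5, which shrinks low values most, the medians of the stem cell (-0.81), natural killer (0.86), chemokine (-0.64), core histone (-0.64) and T cell receptor segment (0.69) lists moved by more than 1.5 times and were then under 2-fold. The medians that crossed 0 were those of the BCL2 family, of blood fate transcription factors and of imprinted growth genes.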

Other observations

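Variable segments of the antibody genes were chosen for a look after their values were seen, and no test was possible. Most were higher in the control, but the most abundant heavy chain segment of the HSC column, Ighv11-2, was at 92.6 FPKM there, 21.7 in the control and 14.8 in CLP. It held 17.4% of the summed FPKM of 113 Ighv segments in the HSC column, 0.703% in the control and 4.07% in CLP. The most abundant kappa segment of the HSC column, Igkv14-126, was at 226 FPKM there, 37.5 in the control and 29.5 in CLP. Its share of the 100 Igkv segments was 22.1%, 0.747% and 10.2% in the order HSC, control and CLP. In the control the most abundant segments held 6.87% (Ighv) and 6.33% (Igkv) of their classes. As background, Ighv11-2 and Igkv14-126 are known as the pair of an antibody against phosphatidylcholine carried by B-1a cells. Whether 1 of the 2 averaged samples carried these transcripts was not tested, and reads may be divided among similar segments.

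The largest difference of all genes compared, singled out after the values were seen, was that of AY036118, a gene that the annotation types as lincRNA. It was at 895 FPKM in the control, 0.281 in the HSC column and 725 in CLP, a difference of 9.45 between control and HSC. The 2 marrow columns, near each other for most genes, were thus far apart for it. Whether the cells or the preparation of the libraries differed here was not tested, and no test was possible.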
